A study of Mus musculus with 6 samples.

Results

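The 10 genes described here encode subunits of the transcription factor AP-1 (Fos, Fosb, Fosl1, Fosl2, Jun, Junb and Jund), the zinc finger factor EGR1, the survival factor IER3 and the transcription factor MYC. They were chosen by name from the 55416 genes of the deposited table, each name matched 1 gene, and all 10 had enough counts to be tested. RNA was sequenced from primary mouse chondrocytes, the cells of cartilage, transfected either with scrambled siRNA (siNC) or with siRNA directed at Pkm2 (siPkm2), in 3 libraries each, with the purpose of learning what PKM2, an isoform of the glycolytic enzyme pyruvate kinase, does in these cells. Both groups were grown in medium with 10% serum and no cytokine is named for either. The labels give wild-type for siNC, name the 3 siPkm2 libraries PKM2, PKM3 and PKM4 knockdown, and give neonatal knee joints as the source, whereas the supplementary methods describe adult mice. The titles name all 3 libraries as siPKM2, and they were taken as such. Nothing says whether libraries of a group came from separate animals, so p-values measure the spread between these libraries.

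Total counts lay between 22316996 and 25691029 per library, and no library repeated another of its group, since 53.6% to 73.7% of genes differed beyond counting noise. Pkm, the targeted gene, stood at 2335, 2746 and 1674 CPM (counts scaled to depth with TMM factors, not to length) in siNC and at 336, 541 and 309 CPM in siPkm2 (adjusted p = 0.0738 without and 0.00932 with replicate number as a block, by the edgeR test described below). The table counts the gene as a whole and not the PKM2 isoform. Chondrocyte markers were present in every library, with Col2a1 between 3015 and 11904 TPM (transcript abundance scaled to gene length and to depth), Acan between 66.7 and 873 TPM and Sox9 between 34.6 and 102 TPM, but the summed TPM of 10 such markers was lowest in replicate 2 of both groups, at 4191 in siNC and 5610 in siPkm2, against 15753 to 19256 in the other 4 libraries. The 7 macrophage markers summed to 118 and 87.6 TPM in replicate 2 of siNC and siPkm2 and to between 11.4 and 26.4 TPM elsewhere. Cd68 made most of the sum in replicate 2, at 92.8 and 53.4 TPM, while Ptprc, which marks blood cells, stayed at or below 0.03 TPM throughout. Summed synovial fibroblast markers were at 117, 354 and 134 TPM in siNC and 198, 455 and 278 TPM in siPkm2. Pdpn was the largest of them in each library, at 70.3, 249 and 57.8 TPM in siNC and 166, 347 and 213 TPM in siPkm2. Cd34 and Dpp4 were also higher in siPkm2 in every pair. Thy1 was lower in every pair, at 27.9, 72.4 and 56.2 TPM in siNC and 7.66, 63.0 and 35.8 TPM in siPkm2. Osteoblast markers summed to 288, 23.8 and 179 TPM in siNC and 106, 15.0 and 41.2 TPM in siPkm2. Ibsp made most of that sum in each library, at 267, 17.7 and 166 TPM in siNC and 89.7, 11.7 and 35.9 TPM in siPkm2. Summed endothelial markers reached at most 3.09 TPM and muscle markers at most 7.36 TPM, and the defining markers Pecam1, Myod1 and Bglap (endothelium, muscle and osteoblasts) at most 0.61, 0.04 and 4.09 TPM. A summed set of 8 interferon-stimulated genes was at 40.3, 1955 and 74.1 TPM in siNC replicates 1, 2 and 3, and at 1312, 3380 and 939 TPM in siPkm2. Replicate 2 therefore stood apart in both groups, and the tests of the 10 genes are given with and without it. In bulk RNA, fewer cells of a type and less RNA per cell cannot be told apart.

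AP-1 is a dimer of basic leucine zipper proteins, formed by a JUN protein with a FOS protein or by a pair of JUN proteins, while FOS proteins do not pair with each other. Fos, Fosb, Egr1, Ier3 and Junb are classical immediate early genes: growth factors and stress switch them on within minutes through MAP kinases, serum response factor and its ELK partners, and their transcripts are short-lived. Fosl1 and Fosl2 respond later and more lastingly, Jund is expressed at a steady level in most cells, and MYC drives genes of growth and ribosome assembly. In cartilage AP-1 is known for its action on the genes of matrix-degrading enzymes. Each library holds the steady state of transcripts in culture, not a time course after a stimulus.

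In the Fos family, Fosl2 was the most abundant transcript in all 6 libraries and Fosb the least. Fos (ENSMUSG00000021250, chromosome 12 from 85473890 to 85477273 on GRCm38, 4 exons) was at 19.4, 10.7 and 4.4 TPM in siNC replicates 1, 2 and 3 and at 30.9, 16.3 and 9.71 TPM in siPkm2. The siPkm2 library was the higher in every replicate pair, but the groups overlapped because replicate 1 of siNC exceeded replicates 2 and 3 of siPkm2. Fosl2 (ENSMUSG00000029135, chromosome 5 from 32135801 to 32157842), which encodes FRA2, was at 53.7, 176 and 70.4 TPM in siNC and at 77.8, 170 and 101 TPM in siPkm2. Replicate 2 was high in both groups and differed little between them, and siPkm2 was above siNC in replicates 1 and 3. Fosl1 (ENSMUSG00000024912, chromosome 19 from 5447547 to 5455946), which encodes FRA1, was at 9.28, 64.6 and 6.67 TPM in siNC and at 14.3, 60.7 and 14.0 TPM in siPkm2. Replicate 2 was again the highest in both groups, with siNC at 7.92 times replicate 1 and 12.7 times replicate 3 in CPM. Fosb (ENSMUSG00000003545, chromosome 7 from 19302696 to 19310051) was scarce, at 0.95, 2.62 and 1.27 TPM in siNC and 0.89, 1.55 and 0.96 TPM in siPkm2, on 45 to 138 counts per library. It was the only one of the 10 genes that was lower in siPkm2 in every pair.

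In the Jun family, Jund was the most abundant in 5 of the 6 libraries, the exception being siPkm2 replicate 2, where Junb was higher. Junb (ENSMUSG00000052837, chromosome 8 from 84974484 to 84978718, 1 exon in the transcript Junb-201) was at 55.1, 134 and 32.8 TPM in siNC replicates 1, 2 and 3 and at 137, 169 and 87.2 TPM in siPkm2. The siPkm2 library was above the siNC library of its number in each pair, and siNC replicate 2 lay within the range of siPkm2, so the groups overlapped. Jun (ENSMUSG00000052684, chromosome 4 from 95049034 to 95052222, a single exon), the founding member, was at 42.6, 137 and 41.1 TPM in siNC and at 42.2, 90.4 and 42.0 TPM in siPkm2. Replicates 1 and 3 were nearly level between the groups, and replicate 2 was high in both. Jund (ENSMUSG00000071076, chromosome 8 from 70698949 to 70700616, a single exon) was at 158, 183 and 134 TPM in siNC and at 149, 158 and 161 TPM in siPkm2. For its level it varied least of the 10 genes, with an SD of 24.2 TPM in siNC and 6.59 TPM in siPkm2 around means of 158 and 156 TPM.

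Egr1 (ENSMUSG00000038418, 2 exons), an immediate early factor that binds DNA through zinc fingers, was at 77.8, 69.3 and 32.4 TPM in siNC and at 73.6, 52.8 and 39.6 TPM in siPkm2. Replicate 3 was the lowest in both groups, and the siPkm2 library was lower in pairs 1 and 2 and higher in pair 3. Ier3 (ENSMUSG00000003541, chromosome 17 from 35821684 to 35822923), which protects cells from death signals, was at 75.8, 380 and 39.8 TPM in siNC and at 141, 301 and 65.3 TPM in siPkm2. As with Fosl1, it was higher in siPkm2 in pairs 1 and 3 and not in pair 2, where siNC was already at the highest level of the 6 libraries. Myc (ENSMUSG00000022346, chromosome 15 from 61985391 to 61990374) was at 31.5, 39.8 and 27.4 TPM in siNC and at 33.6, 48.2 and 32.0 TPM in siPkm2, higher in each pair by a small step.

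**Figure D1:**
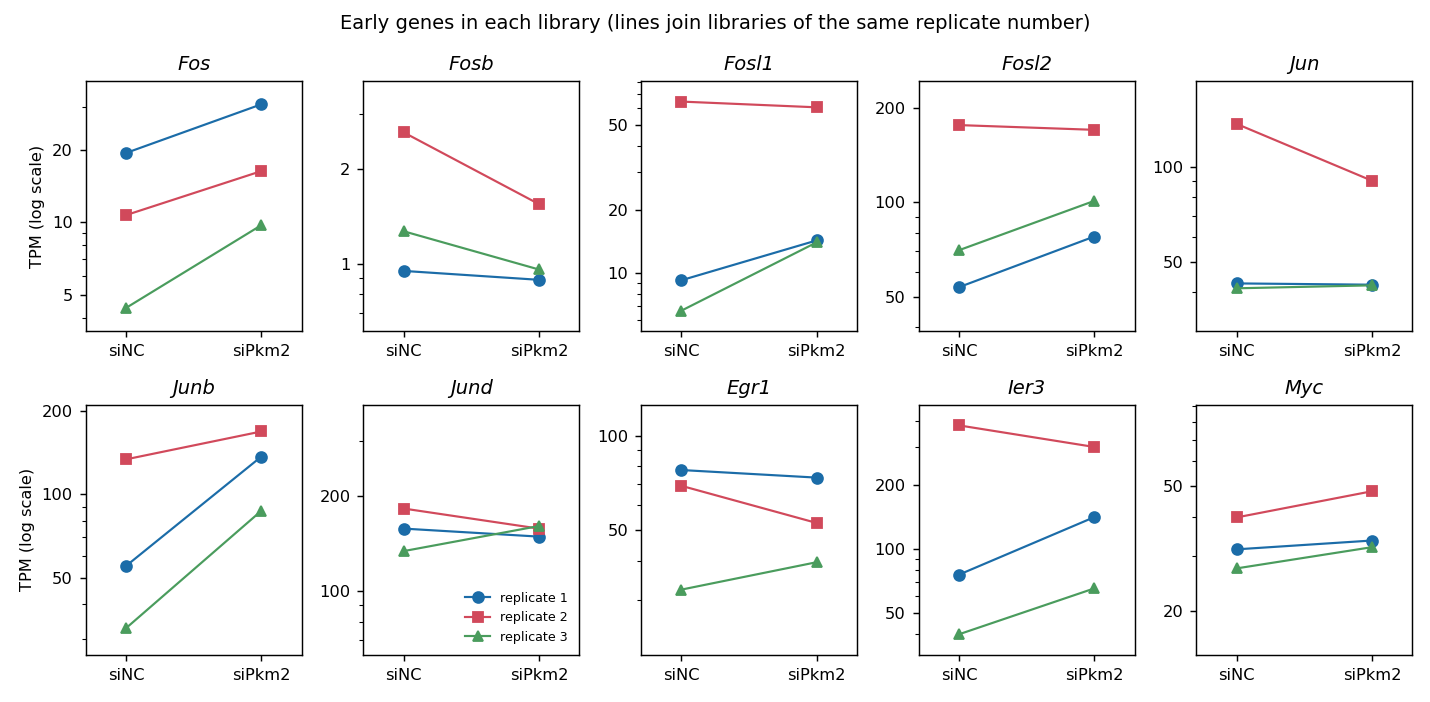
TPM on a log axis for each of the 10 genes in siNC and siPkm2; each point is 1 library and each line joins the libraries of 1 replicate number. The lines of Fos and Junb go up in all 3 pairs, while those of Fosl1, Fosl2 and Ier3 go up in replicates 1 and 3 and stay level or go down in replicate 2.

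The comparison asks which of these genes differed between siPkm2 and siNC. Fos and Junb rose once the replicate number was taken into account, and none of the 10 passed when it was not. Without that block, 0 of the 10 genes and 0 of the 15269 genes tested, or 0%, reached an adjusted p below 0.05 by the quasi-likelihood test of edgeR, Benjamini-Hochberg adjusted across the table. At an unadjusted p under 0.05 there were 0 of the 10 and 2690 of all genes, and DESeq2's Wald test called 0 of the 10, with no adjusted p for Fosl1, and 829 of all genes. Blocking on replicate number, 2 of the 10 genes passed, against 23.1% of all genes tested (12.3% higher and 10.8% lower in siPkm2). The share among the 10 was close to that of all genes. At a fold over 2 as well, the threshold of the supplementary methods, Junb alone passed, against 5.83% of all genes.

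Junb rose 2.07-fold with the replicate block, or by 1.05 ± 0.22 (standard error) on the log2 scale (adjusted p = 0.0286, quasi-likelihood test of edgeR, Benjamini-Hochberg adjusted). Without the block its log2 fold change was 0.88 with a standard error of 0.51 (adjusted p = 0.425, edgeR fit without the block). By pair the siPkm2 library stood 2.43, 1.31 and 2.81 times above the siNC library of replicates 1, 2 and 3 in CPM. Fos rose 1.76-fold with the block, or by 0.82 ± 0.16 (standard error) on the log2 scale (adjusted p = 0.0248, edgeR fit with the block), against 0.70 with a standard error of 0.64 without it (adjusted p = 0.626, edgeR fit without the block). Its ratios by pair were 1.46, 1.67 and 2.34 in CPM. Both calls need all 3 pairs or pairs 1 and 3: with the block and without replicate 1, adjusted p was 0.0909 for Fos and 0.13 for Junb, and without replicate 3 it was 0.127 and 0.145, by the blocked edgeR fit, and under either of those 2 settings 0 genes of the whole table passed.

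The other 8 genes did not pass in either fit. With the block the log2 fold change was 0.76 for Fosl1 (standard error 0.29, adjusted p = 0.113), 0.37 for Fosl2 (0.14, adjusted p = 0.103), 0.45 for Ier3 (0.24, adjusted p = 0.217) and 0.24 for Myc (0.08, adjusted p = 0.0977), all by the quasi-likelihood test of edgeR, Benjamini-Hochberg adjusted. It was -0.41 for Fosb (standard error 0.24, adjusted p = 0.253), -0.15 for Jun (0.14, adjusted p = 0.45), -0.04 for Egr1 (0.14, adjusted p = 0.837) and 0.02 for Jund (0.12, adjusted p = 0.897) by the same edgeR fit. These values do not show that Egr1 and Jund were equal in both groups, only that any difference was within the spread. The median log2 fold change of the 10 genes was 0.30 with the block, and that of all genes was -0.01. DESeq2 with the block called Fos, Junb and also Fosl1 (adjusted p = 0.0254, DESeq2 Wald test with Benjamini-Hochberg adjustment). That fit called 3868 genes of the whole table.

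Without replicate 2 and with the block, 5 of the 10 genes were called, all higher in siPkm2, against 19.8% of all genes called higher and 19.3% called lower. They were Junb (log2 fold change 1.37), Fosl1 (1.22), Fos (0.82), Ier3 (0.81) and Fosl2 (0.54), with adjusted p of 0.000234, 0.00351, 0.0137, 0.000881 and 0.00426 by the quasi-likelihood test of edgeR, Benjamini-Hochberg adjusted. In replicate 2, siNC was close to or above siPkm2 for Fosl1, Fosl2 and Ier3, and also above it for Jun, Egr1, Fosb and Jund, which were not called without that replicate. The siNC library of replicate 2 also carried Isg15, an interferon-stimulated gene, at 747 TPM against 10.4 and 23.1 TPM in the other siNC libraries. In siPkm2 replicates 1, 2 and 3 Isg15 was at 742, 1402 and 421 TPM, so it differed between the groups most in pairs 1 and 3. The part of the interferon-stimulated genes or of the lower cartilage markers in the values of the 10 genes was not tested.

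**Figure D2:**
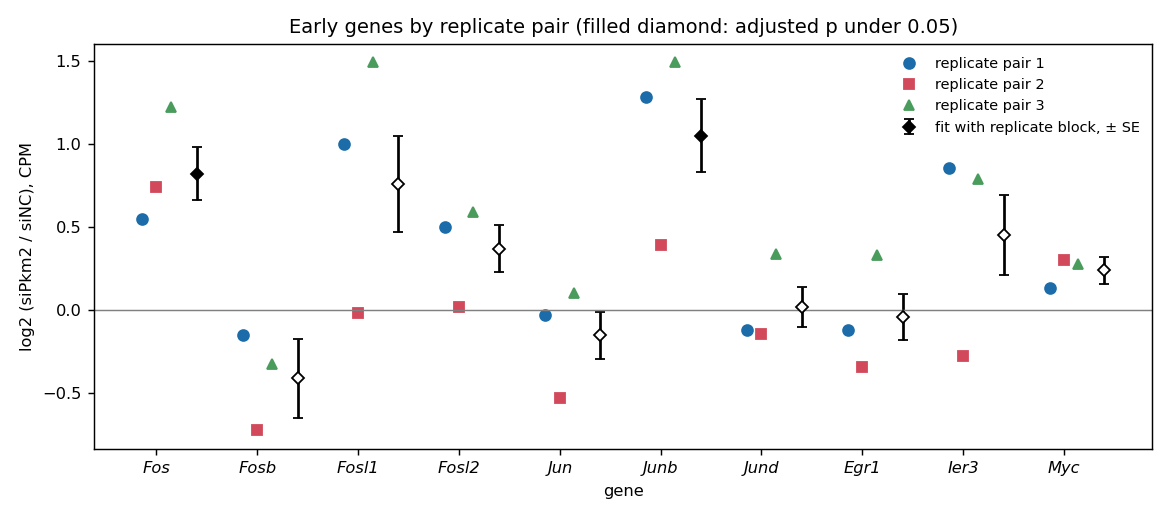
log2 ratio of siPkm2 over siNC in CPM for each replicate pair (coloured points) and the log2 fold change with the replicate block with its standard error (diamonds), for the 10 genes. The diamonds of Fos (0.82) and Junb (1.05) are filled because their adjusted p was under 0.05, and pair 2 gave the lowest ratio for every gene other than Fos and Myc.

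The 250 bases before the RefSeq start (GRCm38.p6) are shown for Fos and Junb, the 2 genes that passed with the block only. Beside them are those of Fosb and Jun, their closest relatives here that did not pass. Capitals mark matches, on either strand, to a set of motifs: TGACTCA (the AP-1 site), TGACGTCA (the cyclic AMP response element), TGACATCA, the CArG box of serum response factor, GCGNGGGCG (the EGR site), CACGTG (the MYC E-box) and, added after the windows were seen, TGACG (which lies inside TGACGTCA), TATAAA and CCAAT. The windows are chr12:85473640-85473889 on the plus strand for Fos, chr8:84978749-84978998 on the minus strand for Junb, chr7:19310046-19310295 on the minus strand for Fosb and chr4:95052223-95052472 on the minus strand for Jun, each printed in the direction of its gene.
Fos: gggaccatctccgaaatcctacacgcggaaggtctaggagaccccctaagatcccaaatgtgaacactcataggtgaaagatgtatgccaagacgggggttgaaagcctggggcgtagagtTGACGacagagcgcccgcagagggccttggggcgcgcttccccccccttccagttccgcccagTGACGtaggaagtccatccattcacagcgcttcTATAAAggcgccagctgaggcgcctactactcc
Junb: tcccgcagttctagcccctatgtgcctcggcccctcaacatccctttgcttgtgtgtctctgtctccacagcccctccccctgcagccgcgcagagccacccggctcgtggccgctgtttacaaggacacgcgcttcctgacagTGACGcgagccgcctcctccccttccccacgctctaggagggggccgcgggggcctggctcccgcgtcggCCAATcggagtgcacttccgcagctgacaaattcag
Fosb: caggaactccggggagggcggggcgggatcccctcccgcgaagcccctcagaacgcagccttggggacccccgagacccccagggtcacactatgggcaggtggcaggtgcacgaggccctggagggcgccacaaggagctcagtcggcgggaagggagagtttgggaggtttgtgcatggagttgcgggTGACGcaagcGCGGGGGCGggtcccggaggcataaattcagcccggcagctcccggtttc
Jun: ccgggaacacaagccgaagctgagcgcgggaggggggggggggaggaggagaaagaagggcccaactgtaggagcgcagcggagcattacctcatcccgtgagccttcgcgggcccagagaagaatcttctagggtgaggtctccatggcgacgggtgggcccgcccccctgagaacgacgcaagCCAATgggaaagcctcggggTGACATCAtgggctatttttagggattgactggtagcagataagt

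TGACG stood in the windows of Fos, Junb and Fosb, and in 20.8% of the 32851 promoter windows of the table. TATAAA stood before the start of Fos, and in Junb it lay just past the RefSeq start and so after the printed bases; GENCODE M21 places that start 30 bases further on. That motif is in 13.6% of all windows. Jun held TGACATCA, present in 3.62% of windows, and Fosb and Fosl2 held the EGR site, present in 5.55%. CCAAT was in Jun, Junb and Ier3, and in 37.4% of all windows. Motifs were sought in the 300 bases of the table, which run 50 bases past the start, for the 7 members listed there (Fos, Fosb, Fosl2, Jun, Junb, Jund and Ier3), and none of the 7 held TGACTCA, TGACGTCA, the CArG box or CACGTG in that window (5.2%, 1.79%, 1.63% and 7.15% of all windows). Bases further upstream were not searched, so a site beyond the window would not be seen, and Fosl1, Egr1 and Myc had no window. In the direction of the gene, the GENCODE M21 start lay 1210 bases from the RefSeq start in Jund and -671 bases in Fosl2. Their windows may therefore not lie at the start in use. No motif was common to the 2 genes that passed with the block and missing from Fosb and Jun except TATAAA. That motif was added after these windows were seen, so nothing is concluded from it. A match in letters says nothing of binding.

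Across libraries most of the spread of these genes lay between replicate numbers and not between groups. Of the sum of squares of log2 CPM over the 6 libraries, replicate number held 94.0% for Jun, 91.7% for Egr1, 91.0% for Ier3, 85.9% for Fosl1 and 85.4% for Fosl2. The median of the 10 genes was 81.2%, where that of all 15269 genes tested was 56.4%. Group held the most for Junb, at 40.7%, then 24.1% for Myc and 21.2% for Fos, and the median of the 10 was 9.44% against 24.6% for all genes. Jund was the exception, with 67.7% in neither. In no member were the libraries of the 2 groups free of overlap, whereas 24.3% of all genes were, and 4 members (Fos, Fosl2, Junb and Myc) were higher in siPkm2 in every pair, against 30.5% of all genes. On the TPM scale Fosl2 left that set, since its ratio in pair 2 was 0.02 on the log2 scale in CPM and -0.05 in TPM.

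**Figure D3:**
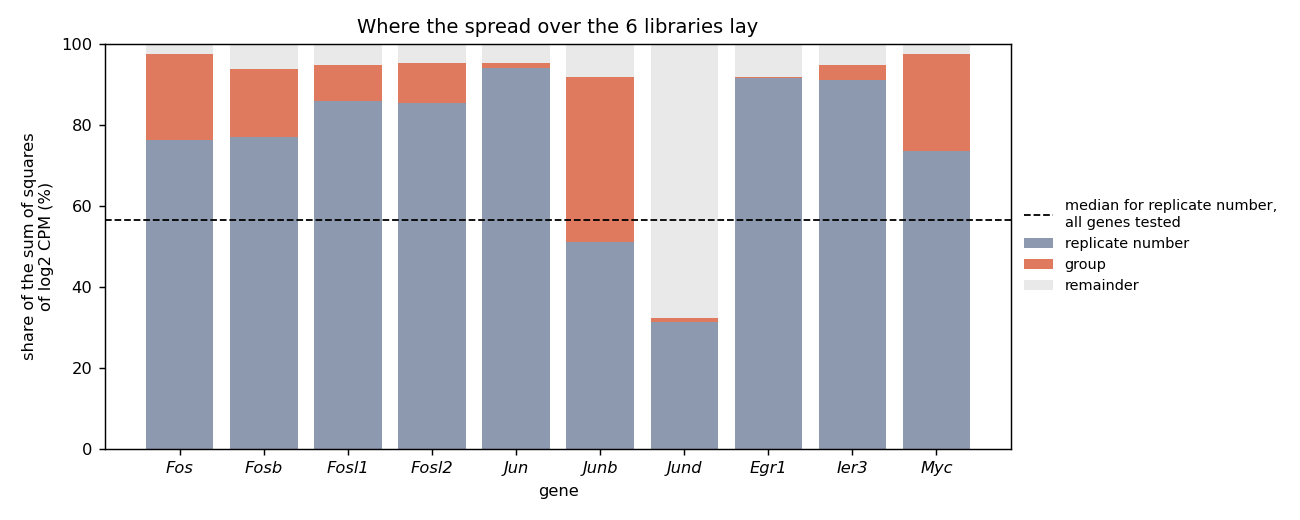
Share of the sum of squares of log2 CPM over 6 libraries that lay between replicate numbers (grey), between siNC and siPkm2 (orange) and in the remainder (pale), for each gene; the dashed line is the median for replicate number over all genes tested, 56.4%. Replicate number takes most of the bar in 9 of the 10 genes, and Junb has the largest share for group, 40.7%.

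The genes did not share a single pattern over the 6 libraries. Fosl1 and Ier3 (Pearson r = 0.95 of log2 CPM, 6 libraries), Fosl1 and Fosl2 (0.95) and Fosb and Jun (0.92) were alike, each pair with its highest levels in replicate 2. Fos went with Egr1 (0.84), both highest in replicate 1, and not with Fosb (-0.37) or Jun (-0.02). These correlations are descriptions, since the libraries share replicate number and depth. Of the genes outside the 10, Tex30, Flvcr2 and Nelfe were most like Fos (r of 0.987, 0.986 and 0.985), Srp68, Mrc1 and Dbf4 most like Egr1 (0.986, 0.981 and 0.979), and E2f4, Eif3d and Pfkp most like Myc (0.995, 0.993 and 0.992). With 6 libraries, 173, 98 and 215 genes reached an r over 0.9 with Fos, Egr1 and Myc, out of 15247 compared.

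Some of these genes lie across others. Junb shares 173 of its 2301 annotated exon bases with Prdx2 on the opposite strand, Fosl1 shares 1163 of 2033 with Ccdc85b, Jun shares 232 of 3189 with the antisense gene Junos, and Jund shares 877 of 1668 with the antisense gene Gm11175, and whether the counting used strand is not given in the sources used here. Prdx2 was between 147 and 172 CPM in all libraries, with a log2 fold change of -0.08 with the block (adjusted p = 0.607, quasi-likelihood test of edgeR, Benjamini-Hochberg adjusted), and its groups overlapped. Ccdc85b was between 28.3 and 64.1 CPM, above Fosl1 in every library and, like it, highest in replicate 2 of both groups. Its log2 fold change was -0.12 with the block (adjusted p = 0.562, same edgeR fit). Junos was also highest in replicate 2, at 16.2 and 13.0 CPM in siNC and siPkm2 against at most 3.16 CPM elsewhere, and had 0.06 (adjusted p = 0.872, same edgeR fit). The counts of Fosl1, Jun and Jund were fractional. The ratios of Fosl1 in pairs 1 and 3, 1.00 and 1.49 on the log2 scale in CPM, were 0.63 and 1.07 in TPM.

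Because TPM is per length, the make-up of each family can be compared within a library. Junb took 21.5%, 29.6% and 15.7% of the summed Jun, Junb and Jund TPM in siNC replicates 1, 2 and 3, and 41.7%, 40.4% and 30.0% in siPkm2. The groups did not overlap, with means of 22.3% ± 6.97 (SD, n = 3) and 37.4% ± 6.42 (SD, n = 3), and the difference was 15.1 percentage points (exact two-sided permutation p = 0.1, the smallest that 3 against 3 libraries allow, and 0.35 adjusted over the 7 shares). Jun and Jund held correspondingly less in every pair, with mean shares of 22.2% and 55.5% in siNC and 16.3% and 46.3% in siPkm2 (exact two-sided permutation p = 0.3 for each, 0.525 adjusted). The permutation test of shares did not use the replicate pairs, so the spread between replicate numbers enters its p-values. The summed level of the 3 genes was 256, 454 and 208 TPM in siNC and 328, 417 and 290 TPM in siPkm2.

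In the Fos family Fosl2 held between 62.8% and 85.1% of the summed TPM, and its mean share in siNC was 73.0% ± 10.8 (SD, n = 3) and that in siPkm2 was 70.5% ± 9.01 (SD, n = 3) (exact two-sided permutation p = 0.6, 0.7 adjusted), although the share was the lower in siPkm2 in all 3 pairs. The share of Fosb was 1.14%, 1.03% and 1.53% in siNC and 0.718%, 0.623% and 0.763% in siPkm2, without overlap (exact two-sided permutation p = 0.1, adjusted 0.35). Fos held 23.2% of the family in siNC replicate 1 and 24.9% in siPkm2 replicate 1 but at most 7.72% in the other libraries, while Fosl1 held 25.5% and 24.4% in replicate 2 of siNC and siPkm2 and at most 11.6% elsewhere. In both groups, Fos followed Fosl2 in replicate 1, and Fosl1 followed it in replicates 2 and 3.

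**Figure D4:**
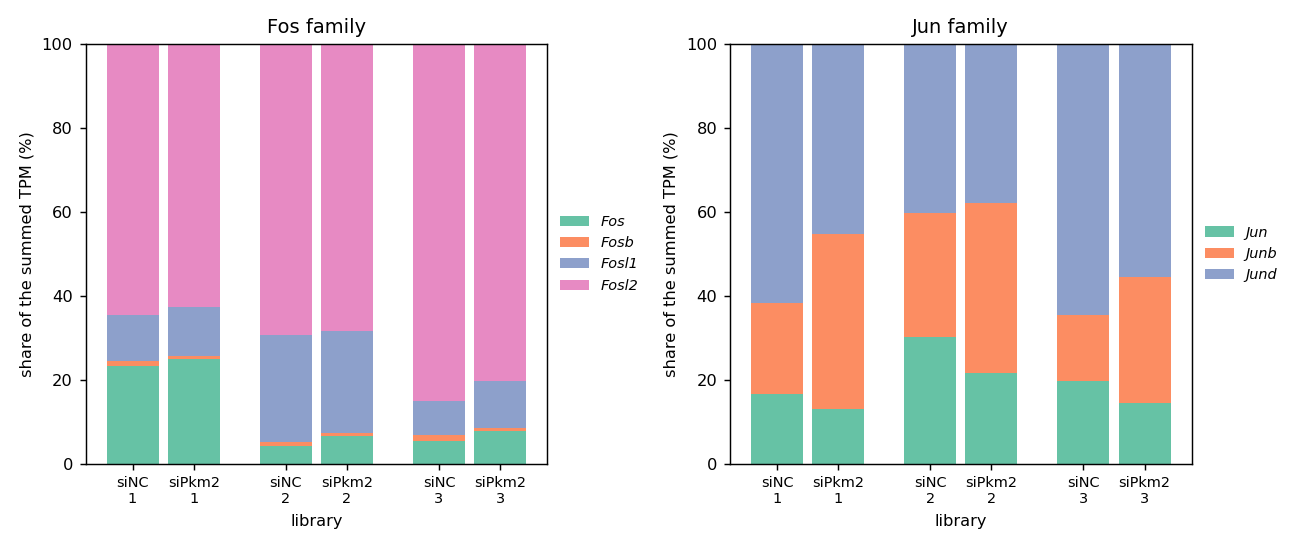
Share of the summed TPM of the Fos family (left) and the Jun family (right) held by each gene in each library, with siNC and siPkm2 of a replicate number side by side. The Junb segment is larger in siPkm2 in all 3 pairs, and Fosl2 holds at least 62.8% of the Fos family in every library.

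The genes around these 10 were followed in 7 lists with 103 genes, of which 98 were tested. Without the block 0 of the 98 passed, and 17 had an unadjusted p under 0.05, where 2690 of all 15269 genes tested did. DESeq2, which sets its own limit on low counts, called 5 of the 103 and 829 genes of the whole table. With the block 32 of 98 passed in the quasi-likelihood test of edgeR, Benjamini-Hochberg adjusted across the table, where 23.1% of all genes did. These lists were written with earlier results of these libraries known, so their counts are a description.

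Of the other early response genes, 23 of 24 were tested, and 6 rose and 1 fell, with a median log2 fold change of 0.585 with the block, while 12.3% of all genes were called higher and 10.8% lower. The 6 were Klf10, Klf4, Csrnp1, Zfp36, Nr4a2 and Ier2. Klf10, a TGF-β-induced zinc finger factor, was at 19.3, 28.2 and 14.9 CPM in siNC and 34.7, 48.7 and 27.2 CPM in siPkm2, a change of 0.83 on the log2 scale (standard error 0.09, adjusted p = 0.0112, edgeR quasi-likelihood test with the block and Benjamini-Hochberg adjustment). Klf4, another zinc finger factor, was at 58.8, 124 and 53.3 CPM in siNC and 134, 174 and 123 CPM in siPkm2 (0.96, standard error 0.16, adjusted p = 0.0189, same edgeR fit). The gene that fell was Ccn1, which encodes a secreted matrix-associated protein and is a target of the YAP and serum response factor pathways, from 808, 644 and 406 CPM to 565, 445 and 324 CPM (-0.46, standard error 0.09, adjusted p = 0.0268, same edgeR fit). Npas4, a neuronal early gene, was at or below 1.8 CPM in all libraries (adjusted p = 0.053, same edgeR fit). Without replicate 2, 15 rose and 1 fell of 22 tested, against 19.8% of all genes higher and 19.3% lower.

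Upstream of the early genes, 2 of 19 kinases and factors rose and 1 fell with the block, a share below the 23.1% of all genes called, and the median log2 fold change was 0.05. Mapk14, which encodes p38α, was at 51.9, 66.6 and 64.3 CPM in siNC and 89.6, 103 and 88.7 CPM in siPkm2 (0.63, standard error 0.09, adjusted p = 0.016, edgeR quasi-likelihood test with the block and Benjamini-Hochberg adjustment). Map2k1, which encodes MEK1, the kinase above ERK, rose by 0.39 (standard error 0.08, adjusted p = 0.0263, same edgeR fit). Mrtfa, an actin-regulated partner of serum response factor, was at 52.1, 58.7 and 66.2 CPM in siNC and 26.3, 49.2 and 35.7 CPM in siPkm2 (-0.71, standard error 0.16, adjusted p = 0.0338, same edgeR fit). Rps6ka5, which encodes the kinase MSK1, had a log2 fold change of -0.43 (adjusted p = 0.279, same edgeR fit), and -0.78 without replicate 2, where it passed (adjusted p = 0.0279). Without replicate 2, 4 rose and 2 fell, against 19.8% of all genes higher and 19.3% lower. Transcript levels do not measure the phosphorylation by which these kinases act.

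Among 10 tested genes of proteins that can pair with AP-1 subunits or are close relatives, Mafk rose and Creb5 fell, against 12.3% of all genes higher and 10.8% lower, and the median log2 fold change was 0.0458. Mafk, a small MAF protein without an activation domain, was at 21.5, 48.3 and 15.4 CPM in siNC and 65.9, 80.2 and 56.1 CPM in siPkm2 (1.40, standard error 0.23, adjusted p = 0.0181, edgeR quasi-likelihood test with the block and Benjamini-Hochberg adjustment). Creb5 was at 8.01, 18.8 and 10.2 CPM in siNC and 2.84, 8.48 and 4.11 CPM in siPkm2 (-1.31, standard error 0.15, adjusted p = 0.0122, same edgeR fit). Atf2 (0.29, adjusted p = 0.0914) and Maf (-0.48, adjusted p = 0.0541) did not pass in the same edgeR fit, but both did without replicate 2 (0.38, adjusted p = 0.013, and -0.66, adjusted p = 0.00179). In that setting 3 genes of the list rose and 2 fell, against 19.8% of all genes higher and 19.3% lower. Of the NAB corepressors of EGR proteins, Nab2, itself an EGR1 target, rose from 84.1, 53.9 and 67.3 CPM to 141, 81.8 and 132 CPM (0.77, standard error 0.10, adjusted p = 0.0133, same edgeR fit), while Egr1 did not pass, and Nab1 had a log2 fold change of 0.25 (adjusted p = 0.119, same edgeR fit) and passed without replicate 2 (0.33, adjusted p = 0.0239).

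In the MYC network 3 of 9 tested genes rose and 1 fell, with a median log2 fold change of 0.187, against 12.3% of all genes higher and 10.8% lower. Without replicate 2, 4 rose and 4 fell, against 19.8% of all genes higher and 19.3% lower. Max, the obligate partner of MYC, was at 78.2, 60.7 and 79.3 CPM in siNC and 105, 84.2 and 105 CPM in siPkm2 (0.43, standard error 0.07, adjusted p = 0.0198, edgeR quasi-likelihood test with the block and Benjamini-Hochberg adjustment), and Mlx rose by 0.65 (adjusted p = 0.0193) and Mnt by 0.37 (adjusted p = 0.035) in the same edgeR fit. Mxd1 fell by 0.49 on the log2 scale (adjusted p = 0.0462, same edgeR fit). Mxi1 had -0.38 (adjusted p = 0.101, same edgeR fit), and -0.58 without replicate 2, where it passed (adjusted p = 0.00504, blocked edgeR fit). Of 22 known MYC targets, 11 rose and 0 fell, where 12.3% of all genes were called higher, and 21 lay above 0 on the log2 scale, their median being 0.407 with the block and 0.402 without it. Bop1, a ribosome assembly factor, was at 45.7, 36.0 and 43.1 CPM in siNC and 76.6, 61.2 and 67.7 CPM in siPkm2 (0.72, standard error 0.08, adjusted p = 0.0117, same edgeR fit). Odc1, the rate-limiting enzyme of polyamine synthesis, was at 253, 82.6 and 196 CPM in siNC and 410, 184 and 361 CPM in siPkm2 (0.91, standard error 0.11, adjusted p = 0.0133, same edgeR fit). The exception in sign was Cdk4, at -0.01 (adjusted p = 0.975, same edgeR fit). Without replicate 2 the median of these targets was 0.356, and 12 of 22 were called higher, against 19.8% of all genes. Myc itself passed in neither fit.

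Of 13 AP-1 targets tested, 2 rose, 2 fell and 9 did not pass, against 12.3% of all genes higher and 10.8% lower, with a median log2 fold change of 0.519 with the block and 0.0216 without it. Without replicate 2, 7 rose and 3 fell of 12 tested, against 19.8% of all genes higher and 19.3% lower. Plau, the urokinase protease, was at 38.4, 42.8 and 38.7 CPM in siNC and 62.2, 79.3 and 75.8 CPM in siPkm2 (0.85, standard error 0.09, adjusted p = 0.0112, edgeR quasi-likelihood test with the block and Benjamini-Hochberg adjustment). Il6, an inflammatory cytokine, was at 0.12, 38.6 and 0.482 CPM in siNC and 6.01, 96.3 and 8.36 CPM in siPkm2 (2.62, standard error 0.66, adjusted p = 0.0426, same edgeR fit). The log2 fold change was 4.61 without replicate 2 and 1.50 without the block, and its replicate 2 was high in both groups, as it was for Fosl1 and Ier3. Spp1, which encodes osteopontin, was at 2424, 9604 and 1355 CPM in siNC and 1327, 3416 and 524 CPM in siPkm2 (-1.24, standard error 0.16, adjusted p = 0.0133, same edgeR fit). The gelatinase gene Mmp9 was between 2.12 and 3.63 CPM in siNC and between 0.42 and 1.48 CPM in siPkm2 (-1.96, standard error 0.37, adjusted p = 0.0227, same edgeR fit).

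**Figure D5:**
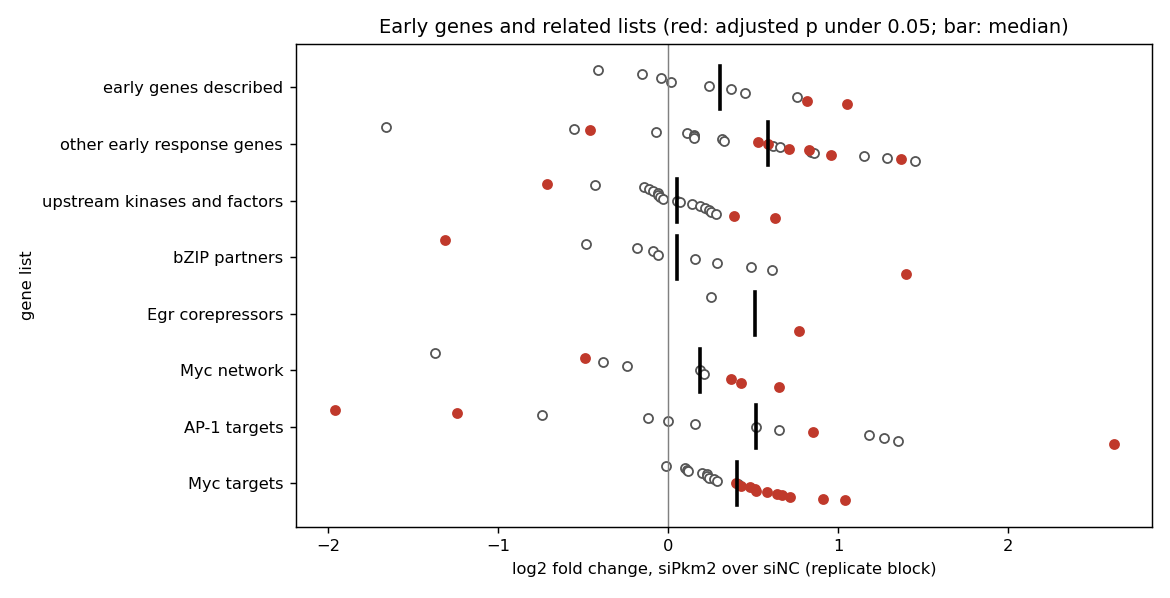
log2 fold change of siPkm2 over siNC with the replicate block for each tested gene of the 10 early genes and of the 7 related lists; red points had an adjusted p under 0.05, open points did not, and bars are medians. Of the 22 MYC targets, 21 lie to the right of 0, and the AP-1 targets spread to both sides.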

How the data were processed

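Per the labels, RNA was sequenced from 6 libraries of primary mouse chondrocytes (siNC and siPkm2, n = 3 each). The authors deposited 1 table of 55416 genes with estimated counts, some of them fractional, and TPM per library, beside their own fold ratio, log2 fold change and p-value columns, which were not used. The labels name edgeR and mm9 without their role, and the aligner and counter are not given in the sources used here. Deposited estimated counts were rounded, and genes with low counts were removed with edgeR's filterByExpr, which left 15269. The quasi-likelihood test of edgeR 4.0.16 in R 4.3.3 compared the groups with TMM scaling and Benjamini-Hochberg adjustment over all genes tested. It was run on simulated data first, where a minimum recovery of changed genes was required only of the fit with the replicate block. The outcome of that simulation is not given here. CPM values use the same scaling, and correlations use log2 CPM with a prior count of 2. Standard errors were derived from the F statistic.

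The fit without the replicate number was set as the main one. The numbers come from the titles, and same-numbered libraries deviated together from their group means (r of 0.664, 0.756 and 0.646, against at most 0.158 for different numbers), so the fit with replicate number as a block is printed beside it. Alternatives were DESeq2 1.42.0, limma 3.58.1 on log2(TPM + 1), other filters, and each library or replicate left out. Shares of TPM were compared by an exact permutation test that did not use the replicate pairs.

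Members and lists were chosen with earlier results of these data known. From each related list the text names the 2 higher and the 2 lower genes with the smallest p with the block; Csrnp1, Zfp36, Nr4a2, Ier2 and Mnt were named after their values were seen because they passed. Gene positions are from GENCODE M21 (GRCm38), in which 52083 identifiers matched, and promoters from RefSeq (GRCm38.p6).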

Additional observations from a re-analysis of the deposited data

How the results depend on the processing

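Of 160 values of the 10 genes under the alternatives, 133 kept their direction and side of the threshold, 10 kept their direction and passed, and 17 changed sign. Blocking on replicate number, 3524 genes of the table, 2 of the 10 early genes and 32 genes of the related lists passed, against 0 of each without it. The blocked DESeq2 fit called 3868 genes and 3 early genes, the blocked fit without replicate 2 called 5941 genes, 5 early genes and 59 genes of the lists, and the block with a fold over 2 called 890 genes and 1 early gene. Without the block, DESeq2 called 829 genes and 5 of the lists (an alternative for the lists added after seeing the data), dropping the filter gave 9 genes, and asking for 10 counts in every library gave 3. Leaving out 1 library gave 0 to 105 genes, with 105 without siNC replicate 2, and 0 to 0 early genes; the cause of these differences was not tested. On TPM, 3 early genes instead of 4 were higher in every pair.

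Leaving out 1 library moved the log2 fold change without the block from 0.15 to 1.47 for Fos, 0.53 to 1.55 for Junb, 0.10 to 0.36 for Myc, -0.71 to 0.01 for Fosb, -0.76 to 2.25 for Fosl1, -0.07 to 0.90 for Fosl2, -0.70 to 0.46 for Jun, -0.10 to 0.08 for Jund, -0.40 to 0.22 for Egr1 and -0.56 to 1.50 for Ier3, so Fos, Junb and Myc kept their sign. Jun (0.03) and Egr1 (0.09) also changed sign in the blocked fit without replicate 2, and Jund in the blocked fit without replicate 3 (-0.13) and in limma on TPM (-0.01). The differences in share of TPM ran from 11.8 to 18.8 percentage points for Junb, -8.60 to -1.87 for Jun, -16.9 to -4.77 for Jund, -0.636 to -0.385 for Fosb, -3.79 to 8.31 for Fos, -3.54 to 6.11 for Fosl1 and -7.37 to 3.63 for Fosl2. Fosb, with at most 138 counts in a library, is the member that depth limits most.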
